A study of Mus musculus with 6 samples.

Results

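Costimulatory receptors and TNF family ligands were examined as a set of 10 genes, chosen by symbol among the 32285 genes of the count tables. They comprise the receptors Tnfrsf4 (OX40), Tnfrsf9 (4-1BB), Tnfrsf18 (GITR), Icos, Cd28 and Cd40, and the TNF family ligands Cd40lg, Tnfsf8 (CD30 ligand), Tnfsf11 (RANKL) and Tnfsf9 (4-1BB ligand). Their unique molecular identifier (UMI) counts were summed per library over 6 classes of cells gated on marker genes with at least 250 genes and at most 5% mitochondrial UMIs, limits that kept 51633 cells. The classes held 8352 CD8 T cells, 2560 CD4 T cells without a Foxp3 UMI, 1329 Foxp3-positive regulatory T cells (Treg), 1396 NK cells, 1129 B cells and 2244 dendritic cells.

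T cells need a costimulatory signal beside that of their antigen receptor. Cd28, which binds Cd80 and Cd86 on antigen-presenting cells, gives this signal to resting T cells, whereas Icos and the TNF receptors Tnfrsf4, Tnfrsf9 and Tnfrsf18 are mostly induced by activation, are also high on Treg, and signal through TRAF adaptors and NF-κB or, for Icos, through phosphoinositide 3-kinase. In the opposite direction, activated CD4 T cells display Cd40lg and Tnfsf11, which engage Cd40 and Tnfrsf11a on dendritic and other antigen-presenting cells.

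The study treated female C57BL/6 mice that carried orthotopic tumors of KPCA, a mouse ovarian cancer line with intact homologous recombination, and sequenced 1 library of cells per treatment. The 6 libraries came from a control mouse given solvent and control IgG, and from mice given 2-deoxy-D-glucose (2DG, used to lower branched N-glycans), 2-fluoro-L-fucose (2FF, a fucose analog that lowers fucosylation), an anti-PD-L1 antibody, 2DG with the antibody (the 2DG combination) or 2FF with the antibody (the 2FF combination). For 2FF, the tumor cells were also exposed to the analog before injection, so these hosts differ from the others in the graft as well. The methods describe tumors in hosts injected at several weeks of age, with 1 age range for all of them. By contrast, the tissue labelled in GEO is lymph node, and the design text speaks of young and aged mice. No age or replicate number is labelled. All comparisons of treatments therefore set 1 library against 1 library and carry no test, and their intervals cover counting error only. Comparisons of cell classes were tested over the 6 libraries, whose treatments differ, so the spread between libraries includes any effect of treatment.

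Libraries held 61859753 to 73885214 UMIs, and gated lymphocytes had median depths of 4761 to 8234 UMIs per cell. The control library stood apart in composition. It contributed 126 CD8 T cells, 141 CD4 T cells, 86 Treg, 23 NK cells and 49 B cells, but 1766 of the 2390 cells in a neutrophil gate. Between 16 and 34 barcodes were shared by any 2 libraries, and at most 5 cells of a library fell into 2 gates. Levels are given as CPM, the UMIs of a gene scaled to the summed UMIs of the class in a library. Treg, gated on Foxp3, carried Il2ra at 822 to 1423 CPM, against 96.7 to 299 CPM in CD4 T cells, NK cells had at most 11.3 CPM of the CD8 markers, and Flt3, one of the genes of the dendritic gate, lay at 187 to 221 CPM in dendritic cells against at most 21.7 CPM elsewhere. The CD4 T gate was not free of Treg-like transcripts. A UMI of Il2ra or of Ikzf2 was found in 83.7% of its cells in the control library and in 62.4% to 75.9% in the other libraries, compared with at least 99.2% of Treg, 49.1% to 57.4% of CD8 T cells and 6.12% to 11.8% of B cells. Ikzf2 reached 1446 CPM in the control CD4 T cells and 387 to 1080 CPM in the others. The members' differences from CD4 T cells are given below also for the 800 CD4 T cells without such a UMI. So are the treatment ratios that changed most. Of these cells, 23 came from the control library. The fits between classes that use them come from stricter gates for all T cells. There, Treg also needed a Cd4 UMI, and CD8 T cells at least 2 UMIs of Cd8a and Cd8b1 together.

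Tnfrsf4, Tnfrsf9 and Tnfrsf18 lie on chromosome 4, and the first and last of them are 9551 bases apart on the plus strand with 2 annotated genes in between (GRCm38: Tnfrsf4, chromosome 4, 156013843 to 156016612; Tnfrsf18, chromosome 4, 156026164 to 156028895; Tnfrsf9, chromosome 4, 150914562 to 150946102). Tnfsf8 is on the same chromosome (63831308 to 63861347, minus strand). Cd28 (chromosome 1, 60716800 to 60773359) and Icos (chromosome 1, 60977927 to 61000320) lie in the same costimulatory locus, 204567 bases apart with 9 annotated genes in between. The remaining members are Cd40lg (chromosome X, 57212143 to 57224042), Cd40 (chromosome 2, 165055627 to 165072948), Tnfsf11 (chromosome 14, 78277445 to 78308043) and Tnfsf9 (chromosome 17, 57105325 to 57107757). All 10 are protein-coding. Icos overlaps the annotated gene Gm37039 on the same strand, and Tnfrsf9, Tnfrsf18 and Tnfsf9 each overlap an antisense gene. Whether these overlaps affected the counts was not tested.

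Because the 3 TNF receptors were all highest in Treg, their promoters are shown for comparison (RefSeq sequences on GRCm38.p6, plus strand, with the RefSeq transcription start near the 3′ end). The gene starts given above come from another annotation. That of Tnfrsf18 lies nearer the 5′ end of its window, and those of Tnfrsf4 and Tnfrsf9 lie outside theirs. RefSeq promoters were matched for 5 of the 10 members, and Icos, Cd28, Cd40lg, Cd40 and Tnfsf9 had no entry. Capitals mark matches to a κB-like motif (GGG, any 2 bases, then TTTCC, on either strand) or to an AP-1 motif (TGANTCA, either strand), which do not overlap each other here. Matches to the former were found in 1.63% and to the latter in 7.81% of all 32851 promoters of this length.
Tnfrsf4 (chr4:156013445-156013744): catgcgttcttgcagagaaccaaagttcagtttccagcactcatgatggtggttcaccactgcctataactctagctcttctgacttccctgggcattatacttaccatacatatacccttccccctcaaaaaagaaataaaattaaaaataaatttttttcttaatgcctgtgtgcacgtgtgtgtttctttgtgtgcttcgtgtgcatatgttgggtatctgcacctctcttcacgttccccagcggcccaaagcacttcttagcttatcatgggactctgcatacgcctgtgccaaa
Tnfrsf18 (chr4:156026072-156026371): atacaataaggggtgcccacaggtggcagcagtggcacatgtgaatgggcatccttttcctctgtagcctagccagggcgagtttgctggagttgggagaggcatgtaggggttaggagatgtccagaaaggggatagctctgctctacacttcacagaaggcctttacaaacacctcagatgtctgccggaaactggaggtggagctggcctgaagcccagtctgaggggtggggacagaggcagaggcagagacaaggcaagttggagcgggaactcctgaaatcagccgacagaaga
Tnfrsf9, downstream start (chr4:150927749-150928048): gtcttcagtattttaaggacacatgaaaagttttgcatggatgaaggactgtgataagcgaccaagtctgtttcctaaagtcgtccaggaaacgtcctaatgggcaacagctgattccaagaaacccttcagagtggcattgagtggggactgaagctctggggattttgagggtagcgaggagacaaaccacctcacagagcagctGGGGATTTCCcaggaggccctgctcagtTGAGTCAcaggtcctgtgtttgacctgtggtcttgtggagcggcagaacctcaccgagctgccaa
Of these, the Tnfrsf9 window held both motifs, the κB-like match at bases 208 to 217 and the AP-1 match at bases 236 to 242 counted from its 5′ end. The windows of Tnfrsf4 and Tnfrsf18 held neither, nor did those of Tnfsf8, Tnfsf11 and the upstream start of Tnfrsf9. These matches describe letters in a window and were not tested for any activity.

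**Figure D1:**
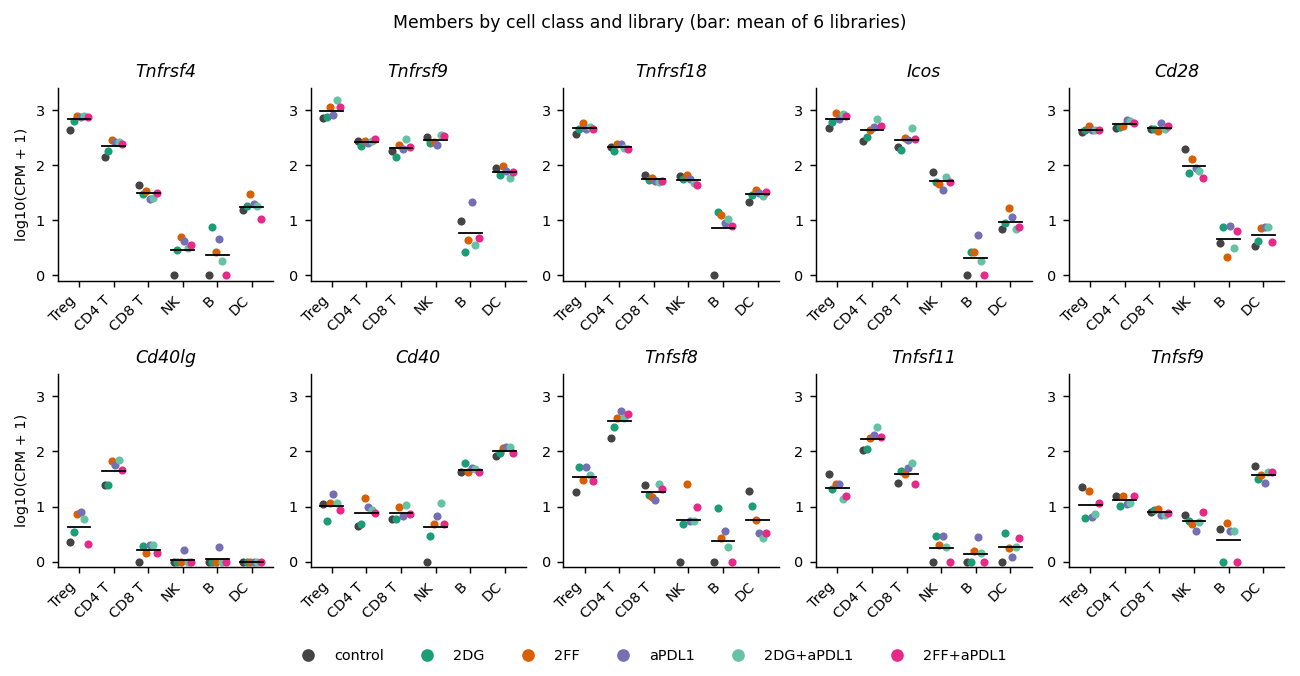
Level of each of the 10 members as log10(CPM + 1), on the y axis, in the 6 cell classes, with 1 point per library and a bar at the mean of 6. Tnfrsf4, Tnfrsf9, Tnfrsf18 and Icos were highest in Treg, Cd40lg, Tnfsf8 and Tnfsf11 in CD4 T cells, and Cd40 and Tnfsf9 in dendritic cells.

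The receptors Tnfrsf4, Tnfrsf9, Tnfrsf18 and Icos had their highest levels in Treg in all 6 libraries, whereas the ligands Cd40lg, Tnfsf8 and Tnfsf11 had theirs in CD4 T cells. Treg and CD4 T cells were compared within libraries by edgeR's quasi-likelihood test with the library as a block. Of the 10 members, 4 were higher and 3 lower in Treg, beside 12.5% of all 11817 genes tested that were higher and 11.1% that were lower. Among the 3 lower, Cd40lg could be called in no other direction. It passed the filter that left out genes with low counts only through its CD4 T cell sums. The median log2 fold change was 0.04 over the members and -0.01 over all genes, because the members moved in both directions.

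Tnfrsf4, the receptor of OX40 ligand, ranged from 427 to 793 CPM in Treg with a median of 738, and from 139 to 289 CPM in CD4 T cells with a median of 250. The 2 classes did not overlap. Its level was higher in Treg in 6 of 6 libraries, by 1.58 ± 0.12 on the log2(CPM + 5) scale (mean difference within libraries ± SD, n = 6), with a fitted log2 fold change of 1.61 and an adjusted p of 3.68e-10. CD8 T cells followed at 30.5 ± 6.93 CPM and dendritic cells at 17.6 ± 6.33 CPM (mean ± SD, n = 6), each below the class before it (adjusted p = 3.96e-15 and 0.00366). NK and B cells, at 2.27 ± 1.33 and 2.11 ± 2.56 CPM, did not pass the test against each other (adjusted p = 0.568). Neutrophils, which were read as a class in which little of the lymphoid members is expected, showed 1.85 ± 2.80 CPM. In that class 3 counts would be 0.296 to 8.15 CPM, depending on the library, so its means of a few CPM rest on few UMIs. Whether such low counts are RNA that was free in the droplets or the cells' own was not tested.

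Tnfrsf9, a receptor that sustains proliferation and survival of activated T cells, ranged from 711 to 1517 CPM in Treg with a median of 967. In CD4 T cells it lay between 225 and 297 CPM, in NK cells between 227 and 349 CPM, and in CD8 T cells between 137 and 293 CPM. The Treg values lay above all others. The difference from CD4 T cells was 1.87 ± 0.36 within libraries (fitted log2 fold change 1.92, adjusted p = 1.14e-10), the difference from NK cells was 1.73 ± 0.36 (fitted 1.67, adjusted p = 8.97e-10), and that from CD8 T cells was 2.23 ± 0.19 (fitted 2.24, adjusted p = 8.94e-13). The next 3 classes overlapped, and neither NK and CD4 T cells (adjusted p = 0.267) nor CD4 T and CD8 T cells (adjusted p = 0.173) passed the test as neighbours. Dendritic cells followed at 75.7 ± 13.5 CPM and B cells at 6.71 ± 7.02 CPM, beside 6.72 ± 4.13 CPM in neutrophils.

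For Tnfrsf18, another TNF receptor of Treg and activated T cells, the levels were 373 to 590 CPM in Treg (median 457) and 177 to 241 CPM in CD4 T cells (median 210). The ranges were apart, and the difference was 1.12 ± 0.22 within libraries (fitted 1.16, adjusted p = 3.84e-11). CD8 T and NK cells were at 54.5 ± 6.83 and 54.3 ± 8.93 CPM with a log2 difference of -0.01 ± 0.15, which did not pass the test (adjusted p = 0.727). Dendritic cells had 28.7 ± 5.01 CPM and B cells 8.10 ± 4.58 CPM. The neutrophil gate held 17.3 ± 7.60 CPM of Tnfrsf18, above the B cell mean.

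Icos, a member of the Cd28 family, measured 468 to 877 CPM in Treg (median 730), 268 to 695 CPM in CD4 T cells (median 461) and 191 to 479 CPM in CD8 T cells (median 295). These ranges overlapped between libraries. Within libraries the order was the same in every one, with Treg above CD4 T cells by 0.67 ± 0.27 (fitted 0.67, adjusted p = 0.000589) and CD8 T cells below CD4 T cells by 0.61 ± 0.19 (fitted log2 fold change -0.59, adjusted p = 0.00274). The latter call was lost without the library block (adjusted p = 0.0785). NK cells had 51.7 ± 13.7 CPM, dendritic cells 8.88 ± 3.87 CPM and B cells 1.43 ± 1.63 CPM, and each step in this order passed the test. Neutrophils had 3.79 ± 3.41 CPM, above the B cell mean. Their range of 0 to 9.89 CPM overlapped that of dendritic cells, 6.03 to 15.9 CPM.

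Cd28, the costimulatory receptor of naive T cells, measured 480 to 658 CPM in CD4 T cells, 420 to 577 CPM in CD8 T cells and 396 to 513 CPM in Treg, with overlapping ranges. No pair of these classes passed the test (adjusted p = 0.420 for CD8 T against CD4 T cells, 0.475 for Treg against CD8 T cells and 0.110 for Treg against CD4 T cells), although Cd28 was lower in Treg than in CD4 T cells in 6 of 6 libraries. The CD4 T cells that lacked Il2ra and Ikzf2 UMIs had 743 ± 150 CPM. With the stricter T cell gates, Cd28 was called lower than in these cells in Treg (log2 fold change -0.69, adjusted p = 0.00109) and in CD8 T cells (-0.58, adjusted p = 0.00638). NK cells carried 104 ± 51.9 CPM, and dendritic and B cells 4.70 ± 2.02 and 4.19 ± 2.46 CPM, near the neutrophil level of 3.52 ± 2.08 CPM.

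Cd40lg, whose product licenses dendritic cells and helps B cells, was detected mainly in CD4 T cells, at 23.3 to 70.1 CPM (median 50.4). Treg had 1.08 to 6.91 CPM and CD8 T cells 0 to 1.03 CPM. The 3 ranges did not overlap, but those of Treg and CD8 T cells rested on few UMIs. Treg held 1 to 14 Cd40lg UMIs per library and CD8 T cells 0 to 13. The lowest Treg value came from 2 UMIs in the 2FF combination, and 3 counts would be 1.04 to 3.77 CPM in Treg. The level in Treg was lower than in CD4 T cells in 6 of 6 libraries (fitted log2 fold change -3.63, adjusted p = 2.63e-11), and that in CD8 T cells was lower still (fitted -6.02 against CD4 T cells, adjusted p = 4.55e-16). Cd40lg passed the filter on low counts through the CD4 T cells, so a call against them could only be downward. No Cd40lg UMI was counted in the 2244 dendritic cells, which allows a share of up to 0.134% of cells with a UMI. A single UMI was counted in NK cells and a single one in B cells, both in the anti-PD-L1 library.

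Tnfsf8, the ligand of CD30, measured 172 to 550 CPM in CD4 T cells (median 404), 17.6 to 51.8 CPM in Treg (median 32.3) and 12.1 to 24.2 CPM in CD8 T cells (median 17.3). CD4 T cells stood clear of both. Treg were lower by 3.23 ± 0.54 within libraries (fitted -3.32, adjusted p = 3.18e-09) and CD8 T cells differed from CD4 T cells by -3.998 ± 0.81 (fitted -4.44, adjusted p = 6.03e-12). The step from Treg to CD8 T cells (fitted 1.11, adjusted p = 0.0162) was lost without the 2DG library (0.89, adjusted p = 0.111), without the anti-PD-L1 library (0.89, adjusted p = 0.0993), with DESeq2 (0.97, adjusted p = 0.168) and with the stricter T cell gates (0.85, adjusted p = 0.133).

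Tnfsf11, the ligand of RANK, reached 104 to 282 CPM in CD4 T cells (median 177), 25.0 to 60.01 CPM in CD8 T cells (median 40.1) and 12.9 to 37.7 CPM in Treg (median 22.0). CD4 T cells were again apart from both, and the other two overlapped. The differences were -1.97 ± 0.45 for CD8 T against CD4 T cells (fitted -2.08, adjusted p = 5.76e-10) and -2.69 ± 0.90 for Treg against CD4 T cells (fitted -3.003, adjusted p = 1.26e-11). Treg were below CD8 T cells in 5 of 6 libraries (fitted -0.92, adjusted p = 0.00282), a call that DESeq2 did not make (-0.78, adjusted p = 0.0776). In NK, B and dendritic cells the mean was 0.46 to 0.97 CPM.

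Cd40, the receptor that Cd40lg engages, measured 82.3 to 121 CPM in dendritic cells (median 104) and 40.5 to 59.4 CPM in B cells (median 43.5). The classes did not overlap, and dendritic cells were higher in 6 of 6 libraries by 1.08 ± 0.29 (fitted 1.23, adjusted p = 1.26e-07). Treg, CD4 T, CD8 T and NK cells had means of 9.89, 7.24, 6.70 and 4.28 CPM, beside 2.83 ± 2.95 CPM in neutrophils. The step from B cells to Treg passed the test (adjusted p = 2.87e-10), and no step among Treg, CD4 T, CD8 T and NK cells did.

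Tnfsf9, the ligand of Tnfrsf9, was also highest in dendritic cells, at 25.5 to 53.2 CPM (median 38.6) against 9.35 to 14.8 CPM in CD4 T cells and 5.99 to 8.13 CPM in CD8 T cells. Dendritic cells were above every other class in 6 of 6 libraries (fitted 4.01 against B cells, adjusted p = 1.19e-13). CD4 T cells exceeded CD8 T cells by 0.53 ± 0.21 (fitted log2 fold change for CD8 T over CD4 T cells -0.71, adjusted p = 0.00530). The call was lost at nearly the same fold with the stricter T cell gates (-0.69, adjusted p = 0.130). Treg at 11.2 ± 6.97 CPM, NK cells at 4.70 ± 1.63 CPM and B cells at 2.01 ± 1.63 CPM stood beside 4.82 ± 4.95 CPM in neutrophils.

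**Figure D2:**
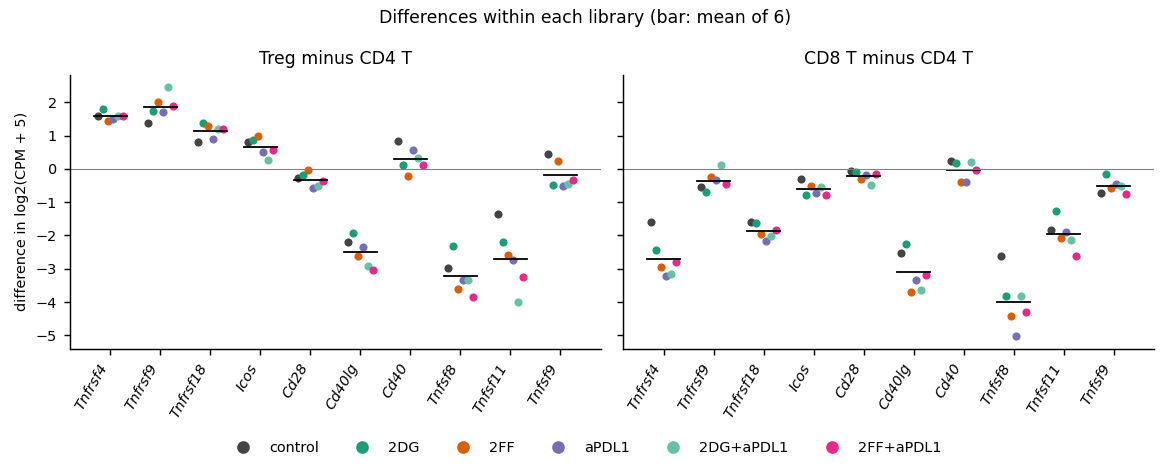
Differences in log2(CPM + 5) between Treg and CD4 T cells (left) and between CD8 T and CD4 T cells (right), on the y axis, for the 10 members, with 1 point per library and a bar at the mean of 6. Tnfrsf4, Tnfrsf9, Tnfrsf18 and Icos lie above 0 in the left panel in every library, and Cd40lg, Tnfsf8 and Tnfsf11 lie below 0 in both panels.

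Compared with Treg, CD8 T cells had less of 6 members and more of 1. The 6 called higher in Treg were Tnfrsf4 (fitted 4.57), Tnfrsf18 (3.12), Cd40lg (2.39), Tnfrsf9 (2.24), Icos (1.26) and Tnfsf8 (1.11), and Tnfsf11 was lower, beside 19.4% of genes higher and 18.8% lower. Compared with CD4 T cells, CD8 T cells were lower in 7 members and higher in none, beside 11.1% of genes lower and 9.1% higher. Cd40lg, 1 of the 7, could only be called lower. The control library gave the smallest difference between CD8 T and CD4 T cells for Tnfrsf4 and Tnfsf8 (-1.60 and -2.62, against lowest values of -3.23 and -5.02). Leaving it out changed neither call.

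The CD4 T gate affected Tnfrsf9 in particular. With CD4 T cells that carried neither Il2ra nor Ikzf2, Tnfrsf9 fell to 115 ± 46.2 CPM in CD4 T cells, from 264 ± 25.0 CPM. In the fit with the stricter T cell gates, the comparison of CD8 T with CD4 T cells reversed, from -0.33 (adjusted p = 0.173) to 0.77 (adjusted p = 0.00864). These gates remove CD4 T cells by genes that at least 49.1% of the CD8 T cells in each library also carried. CD8 T cells were not filtered by these genes but by a higher minimum of Cd8a and Cd8b1 UMIs, and Treg by a Cd4 UMI. The sides are then not chosen alike, and the part of each gate in the changes was not tested. The other fits in this paragraph used the same gates. Tnfrsf4 fell from 229 ± 56.5 to 144 ± 50.8 CPM and Tnfrsf18 from 212 ± 25.0 to 156 ± 26.1 CPM in the restricted CD4 T cells, whereas Cd40lg was 73.8 ± 26.1 CPM in place of 47.3 ± 20.2 CPM. Treg remained above these cells for Tnfrsf9 (3.005, adjusted p = 1.52e-12), Tnfrsf4 (2.15, adjusted p = 2.28e-11), Tnfrsf18 (1.64, adjusted p = 1.76e-12) and Icos (0.46, adjusted p = 0.0296), and below them for Cd40lg (-4.11, adjusted p = 4.79e-11), Tnfsf8 (-3.40, adjusted p = 7.20e-08) and Tnfsf11 (-2.67, adjusted p = 1.24e-09). CD8 T cells were likewise below them for Cd40lg (-6.77), Tnfsf8 (-4.25), Tnfrsf4 (-2.39), Tnfsf11 (-1.85), Tnfrsf18 (-1.49) and Icos (-0.77, adjusted p = 0.000544). The gene lists described further on were counted with the full gate only.

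Detection of Tnfrsf4 in single cells followed its summed levels across Treg, CD4 T cells and CD8 T cells. A Tnfrsf4 UMI was found in a median of 90.0% of Treg per library, 56.7% of CD4 T cells and 10.1% of CD8 T cells, against 0.6% of neutrophils, whose median depth was 2542 to 4060 UMIs per cell compared with 5226 to 7201 for Treg. After every cell was thinned to 1000 UMIs, these shares became 46.2%, 18.7%, 1.85% and 0.1%. Tnfsf8 did not follow its summed levels between Treg and CD8 T cells. Its mean was 35.5 CPM in Treg and 18.1 CPM in CD8 T cells, but a UMI was found in medians of 3.84% and 5.39%. With thinned cells these medians were 1.17% and 1.39%. All 4 of Tnfrsf4, Tnfrsf9, Tnfrsf18 and Icos were detected together in 54.7% to 78.1% of Treg, in 19.2% to 27.6% of CD4 T cells and in 2.88% to 4.76% of CD8 T cells. None of the 4 was seen in 0% to 0.512% of Treg and in 86.5% to 98.0% of B cells. No NK or B cell carried all 4.

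Among all cells that passed the filters, the gated CD4 T cells held 62.6% of all Cd40lg UMIs, 56.1% of Tnfsf8 UMIs and 43.7% of Tnfsf11 UMIs. Treg held 41.4% of Tnfrsf4 and 20.8% of Tnfrsf9 UMIs. CD8 T cells, the class with the most cells, held more of the Tnfrsf9 UMIs (30.1%), and 46.5% of Icos and 54.2% of Cd28 UMIs. By contrast, 22.7% of Cd40 UMIs and 23.6% of Tnfsf9 UMIs fell in the 6 classes, so most transcripts of these 2 genes were in cells outside them.

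NK cells, innate lymphocytes that use some of these receptors, differed from CD8 T cells in 5 members. Tnfrsf9 was higher in NK cells in 6 of 6 libraries (0.50 ± 0.31, fitted 0.57, adjusted p = 0.00664), a call that was lost without the 2DG library (0.48, adjusted p = 0.0593). Tnfrsf4, Icos, Cd28 and Tnfsf11 were lower, with fitted log2 fold changes of -3.43, -2.56, -2.36 and -5.18. NK cells held only 0 to 5 Tnfrsf4 and 0 to 3 Tnfsf11 UMIs per library. The fold sizes of these genes therefore rest on counts near the floor, and a higher call was hardly possible for them. The background was 20.1% of genes higher and 22.0% lower. The control library held 23 NK cells and showed the highest Cd28 level among NK cells, 197 CPM from 32 UMIs, against 58.7 to 130 CPM in the other libraries.

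Between dendritic and B cells, 6 members were higher in dendritic cells and none lower (Tnfsf9, Tnfrsf9, Tnfrsf4, Icos, Tnfrsf18 and Cd40), beside 34.6% of genes higher and 31.5% lower. B cells held 0 to 4 Tnfrsf4, 0 to 5 Icos and 0 to 7 Tnfsf9 UMIs per library. With so few, a lower call in dendritic cells was hardly possible for these genes. Cd28, Cd40lg, Tnfsf8 and Tnfsf11 did not pass the test, and all 4 had means under 6.5 CPM in both classes.

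CD8 T cells were divided by UMIs of Havcr2 (TIM-3, a receptor of exhausted cells) and Tcf7 (TCF-1, a factor of stem-like cells). There were 4626 Havcr2-positive cells, 855 Tcf7-positive cells without Havcr2 and 2871 with neither. Of the 9 members tested, Tnfrsf9 and Icos were higher and Tnfsf8 and Cd28 lower in Havcr2-positive than in Tcf7-positive cells, beside 17.0% and 17.6% of the 11014 genes tested. Tnfrsf9 measured 182 to 363 CPM in Havcr2-positive, 92.1 to 204 CPM in double-negative and 28.8 to 83.2 CPM in Tcf7-positive cells. The first and last of these ranges did not overlap (1.91 ± 0.58 within libraries, fitted 1.77, adjusted p = 1.25e-08). Icos rose by 0.57 ± 0.45 (fitted 0.62, adjusted p = 3.40e-05) in 5 of 6 libraries, the exception being the control, which had 20 Tcf7-positive cells.

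Tnfsf8 ran the other way among CD8 T cells. It measured 47.0 to 129 CPM in Tcf7-positive, 12.1 to 37.2 CPM in double-negative and 5.49 to 12.3 CPM in Havcr2-positive cells. Tcf7-positive cells lay above the others in every library, with a difference of -2.57 ± 0.57 for Havcr2-positive over Tcf7-positive cells (fitted -3.38, adjusted p = 2.71e-10). Cd28 was 370 to 498 CPM in Havcr2-positive and 420 to 853 CPM in Tcf7-positive cells, lower in the former in 6 of 6 libraries (-0.65 ± 0.32, fitted -0.77, adjusted p = 2.29e-06). Tnfrsf4, Tnfrsf18 and Tnfsf11 did not pass the test here (adjusted p = 0.122, 0.0927 and 0.0843), but all 3 were called without the filter on low counts (0.57, 0.36 and -0.40, adjusted p = 0.00189, 0.0187 and 0.00771), which brought the members called to 8. The shares of all genes given above hold for the filtered genes only, so this count cannot be read against them. Havcr2-positive cells were also deeper in every library but the control, with library medians of 6894 to 9142 UMIs against 5460 to 8306. In the control the medians were 8273 and 8306 UMIs. The 4 calls stood after cells were thinned to 1000 UMIs. The states were assigned before thinning, so thinning cannot show how depth affected the assignment.

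Dendritic cells were divided into mature cells with Ccr7 and Fscn1 UMIs, of which there were 438, and 1312 other conventional cells with Xcr1, Clec9a or Cd209a. The remaining 494 dendritic cells met neither rule and were left out of this comparison. Tnfrsf4, Tnfrsf9, Tnfrsf18 and Cd40 were higher in mature cells, 4 of the 6 members tested, and none was lower, beside 28.1% of 8800 genes higher and 29.7% lower. Tnfrsf9 measured 295 to 406 CPM in mature cells and 3.80 to 19.2 CPM in the others (4.72 ± 0.52, fitted 5.60, adjusted p = 1.70e-10). The levels of Tnfrsf4 were 57.6 to 134 CPM and 0.42 to 3.74 CPM (3.83 ± 0.41, fitted 5.93, adjusted p = 1.23e-10). Neither gene overlapped between mature and other conventional cells. Tnfrsf4 had 1 to 8 UMIs per library in the other conventional cells. It passed the filter on low counts through the mature cells, so a call could only be upward. In the 494 cells left out, Tnfrsf9 measured 34.5 to 96.5 CPM and Tnfrsf4 1.36 to 6.44 CPM.

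Cd40 in mature dendritic cells was 176 to 252 CPM, compared with 41.1 to 106 CPM in other conventional cells (1.44 ± 0.56, fitted 1.70, adjusted p = 1.02e-05). Tnfrsf18 was 41.5 to 115 CPM and 14.4 to 18.7 CPM (1.97 ± 0.51, fitted 2.50, adjusted p = 1.65e-08). Both were higher in mature cells in 6 of 6 libraries. When cells were thinned to 1000 UMIs, Tnfrsf9 (5.77) and Cd40 (1.01) were still called, and Tnfrsf4 and Tnfrsf18 were too sparse to be tested.

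Tnfsf9 differed by another division of the dendritic cells. It measured 46.5 to 98.3 CPM in Cd209a-positive, 7.51 to 14.6 CPM in Xcr1- or Clec9a-positive and 21.0 to 60.2 CPM in mature cells. The first 2 ranges did not overlap. In the remaining 494 dendritic cells, Tnfsf9 measured 18.2 to 102 CPM. The comparison of mature with all other conventional cells did not pass the test (fitted 0.40, adjusted p = 0.294). The share of Cd209a-positive cells among dendritic cells ranged from 20.9% in the control library to 49.7% in the 2DG combination.

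**Figure D3:**
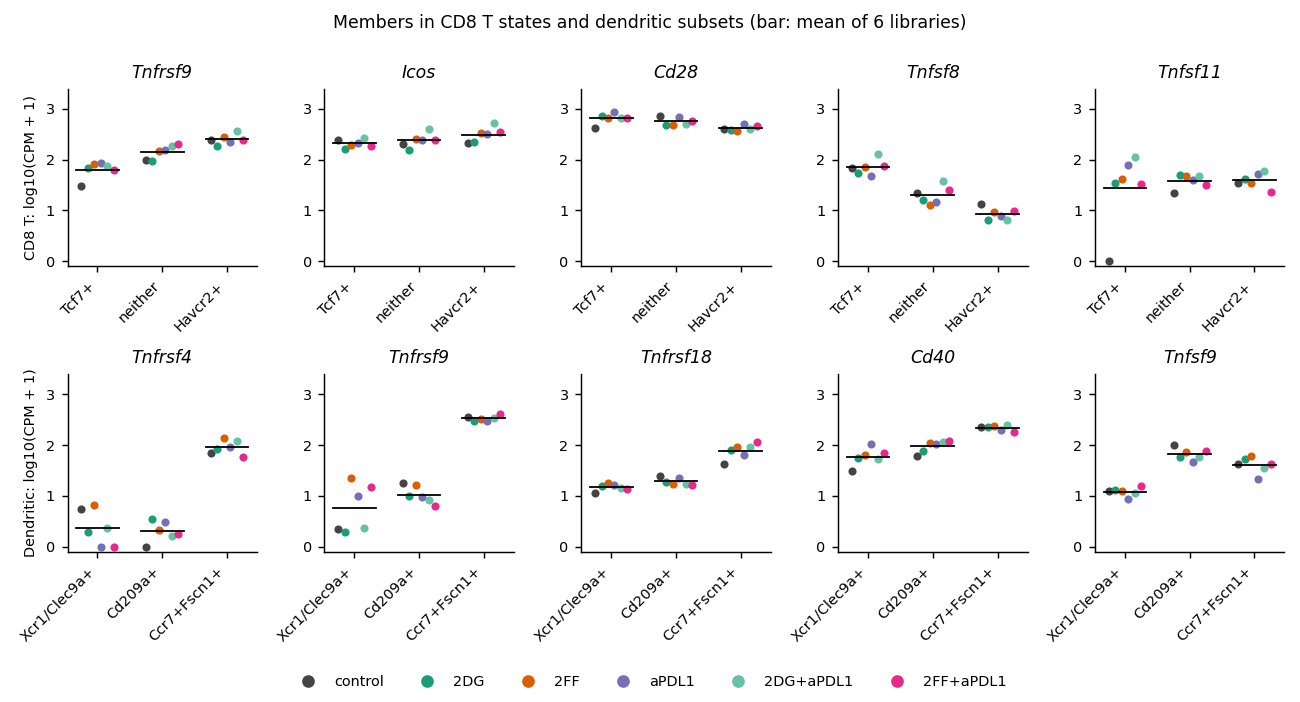
Members in CD8 T cells divided by Tcf7 and Havcr2 (top) and in dendritic subsets (bottom), as log10(CPM + 1) on the y axis, with 1 point per library and a bar at the mean of 6. Tnfrsf9 rises and Tnfsf8 falls from Tcf7-positive to Havcr2-positive cells, and Tnfrsf4, Tnfrsf9, Tnfrsf18 and Cd40 are highest in mature dendritic cells.

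The direct ligands and receptors of the members were read in the same classes. Tnfsf4, the ligand of Tnfrsf4, measured 38.7 ± 10.4 CPM in CD4 T cells, 32.1 ± 10.0 CPM in CD8 T cells and 3.72 ± 2.29 CPM in Treg, the class with most of its receptor (Treg over CD4 T cells -3.30, adjusted p = 3.68e-10). In dendritic cells it was 16.9 ± 3.51 CPM, and 62.8 CPM in mature against 2.29 CPM in other conventional cells (fitted 5.01, adjusted p = 2.77e-08). At its level in other conventional cells Tnfsf4 could not pass the filter on low counts there, so a call could only be upward. Tnfrsf8, the receptor of Tnfsf8, was highest in Treg at 62.7 ± 9.80 CPM, compared with 18.2 ± 5.26 CPM in CD4 T cells (fitted 1.78, adjusted p = 3.56e-09). Tnfsf8 and Tnfrsf8 were each highest on the opposite side of the Foxp3 division, and so were Tnfsf4 and Tnfrsf4 among T cells.

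Tnfrsf11a, which encodes RANK, was 74.3 ± 24.0 CPM in dendritic cells and at most 9.18 CPM on average in each lymphoid class. It was 248 CPM in mature and 29.0 CPM in other conventional dendritic cells (fitted 3.30, adjusted p = 3.61e-09). Icosl was 43.2 ± 6.64 CPM in dendritic and 24.3 ± 8.23 CPM in B cells (fitted 0.77, adjusted p = 3.82e-05). Cd86 was alike in level in dendritic cells (815 ± 156 CPM) and B cells (789 ± 204 CPM, adjusted p = 0.915), whereas Cd80 was 347 ± 42.0 CPM in dendritic and 77.5 ± 7.66 CPM in B cells and reached 487 ± 88.5 CPM in neutrophils. Tnfsf18, the ligand of Tnfrsf18, had no UMI in Treg and at most 0.70 CPM on average in any class, too few for the class test.

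**Figure D4:**
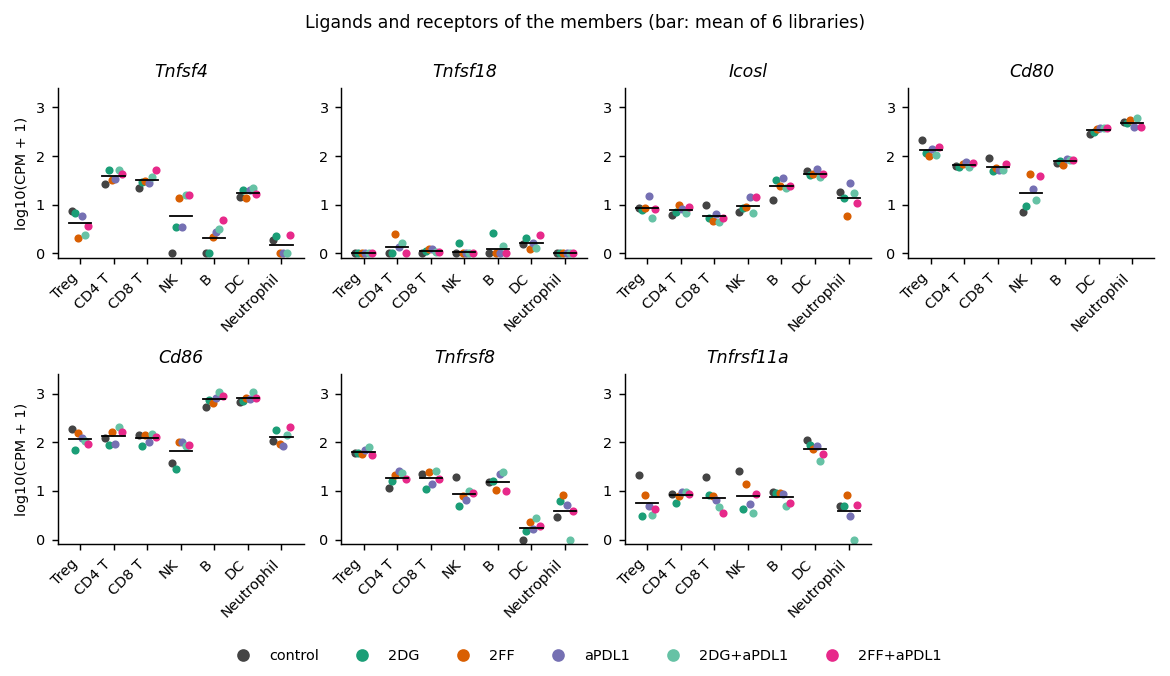
Ligands and receptors of the members, as log10(CPM + 1) on the y axis, in the 6 classes and in neutrophils, with 1 point per library and a bar at the mean of 6. Tnfrsf8 is highest in Treg, Tnfrsf11a in dendritic cells, Tnfsf4 in CD4 T and CD8 T cells, and Cd80 in neutrophils.

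Other genes of the TNF and CD28 systems were counted from a list of 28, of which 25 could be tested between classes. This list, the signalling list below and the members were chosen with earlier results of these data known. Their counts beside the shares of all genes are therefore a description. In Treg over CD4 T cells, 8 were higher, led by Tnfrsf8 (1.78), Tnfrsf13b (1.58) and Ctla4 (1.32), and 8 were lower, led by Tnfsf4 (-3.30), Fasl (-3.20) and Cd70 (-2.78), beside 12.5% and 11.1% of all genes. Over CD8 T cells, Treg had 9 higher, led by Tnfrsf25 (3.16), Tnfrsf13b (3.04) and Tnfrsf8 (1.84), and 6 lower, led by Fasl (-3.98), Tnfsf4 (-3.06) and Tnfsf13b (-1.89), beside 19.4% and 18.8%. CD8 T cells had 4 higher than CD4 T cells, led by Fasl (0.78), Fas (0.76) and Cd27 (0.74), and 6 lower, led by Tnfrsf25 (-2.91), Lta (-2.26) and Cd70 (-1.97), beside 9.1% and 11.1%. Tnfrsf25 is the receptor DR3, and Fasl is a ligand of cytotoxic killing. NK over CD8 T cells gave 5 higher (Tnfsf13, Tnfrsf25 and Icosl leading) and 11 lower (Cd27, Tnfsf13b and Tnfsf10 leading), beside 20.1% and 22.0%. Dendritic over B cells gave 9 higher (Cd70, Tnfrsf11a and Tnfsf4 leading) and 7 lower (Tnfrsf13c, Tnfrsf8 and Ltb leading), shares near the 34.6% and 31.5% of all genes. Among the 22 tested in CD8 T states, 9 were higher in Havcr2-positive cells, led by Tnfrsf8 (1.97), Tnfsf13b (1.48) and Tnfsf10 (0.99), and 4 lower, led by Tnfsf14 (-1.06), Lta (-1.04) and Fas (-0.53), beside 17.0% and 17.6%. In mature dendritic cells 7 of 13 were higher, led by Tnfsf4, Tnfrsf11a and Fas (3.05), and 4 lower, led by Ctla4 (-2.20), Tnfrsf1a (-1.58) and Tnfrsf13b (-1.35), beside 28.1% and 29.7%. Of these, Tnfsf4 could only be called upward, as said above.

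A list of 23 genes that act below these receptors (TRAF adaptors, NF-κB subunits and inhibitors, and kinases of the CD28 pathway) was counted in the same way, against the same shares of all genes (higher and lower): 12.5% and 11.1% for Treg over CD4 T cells, 19.4% and 18.8% for Treg over CD8 T cells, 9.1% and 11.1% for CD8 T over CD4 T cells, 20.1% and 22.0% for NK over CD8 T cells, 34.6% and 31.5% for dendritic over B cells, 17.0% and 17.6% for Havcr2-positive over Tcf7-positive cells and 28.1% and 29.7% for mature over other dendritic cells. Treg had 9 higher and 4 lower than CD4 T cells, with Traf3 (0.77), Bcl2l1 (0.70), Traf1 (0.66), Pik3cd (-0.90), Prkcq (-0.87) and Lck (-0.41) at the ends, and 14 higher and 6 lower than CD8 T cells, with Bcl2l1 (1.60), Nfkbia (1.36), Traf3 (1.17), Prkcq (-1.32) and Pik3cd (-1.26). Traf1 and Traf3 are adaptors of TNF receptors, Bcl2l1 encodes the survival protein BCL-XL and Prkcq a kinase that acts below CD28. CD8 T cells had 2 higher (Prkcq and Pik3cd) and 11 lower than CD4 T cells (Bcl2l1, Nfkb2 and Nfkbia leading), and NK cells 13 higher (Pik3r1, Birc3 and Nfkbia leading) and 4 lower than CD8 T cells (Birc2 and Lck among them). Dendritic cells had 13 higher (Pik3r1, Map3k14 and Traf1 leading) and 4 lower than B cells (Lck, Traf5 and Birc3 leading). In Havcr2-positive CD8 T cells, 2 were higher (Bcl2l1, 0.40, and Grb2, 0.34) and 10 lower, led by Prkcq (-0.91), Nfkb1 (-0.71) and Relb (-0.56). Mature dendritic cells were higher in 17 of the 21 tested, led by Birc2 (3.34), Relb (2.94) and Traf3 (2.64), and lower in 2, Pik3cd (-1.90) and Vav1 (-1.42). The median over the list in mature dendritic cells was 1.502, against -0.03 over all genes.

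The genes whose levels were most like each member were sought among 8575 genes by Pearson's r of log2(CPM + 5) over the 36 sums of 6 classes and 6 libraries. These sums share libraries and cell types, so r is a description. Closest were Hif1a for Tnfrsf4 (r = 0.97), Ldlrad4 for Tnfrsf9 (0.95), Ikzf2 for Tnfrsf18 (0.95), Rora for Icos (0.98), Trbc2 for Cd28 (0.98), Hs6st3 for Cd40lg (0.95), Kmo for Cd40 (0.97), Tnfsf11 for Tnfsf8 (0.89), Pdcd1 for Tnfsf11 (0.95) and Pgam1 for Tnfsf9 (0.92). Among the next in order were Itgb8 and Sdcbp2 for Tnfrsf4, Raph1 and Leprotl1 for Tnfrsf9, Sdf4 and Nrip1 for Tnfrsf18, Vps54 and Camk4 for Icos, and Camk4 and Lat for Cd28. For the other members they were Tnfsf8 and Dgki for Cd40lg, H2-Ab1 and Ciita for Cd40, Podnl1 and Vamp5 for Tnfsf8, Kcnmb4 for Tnfsf11, and Rtn4 and Mkrn1 for Tnfsf9. Trbc2 encodes a chain of the T cell antigen receptor and Lat an adaptor below it, H2-Ab1 is an MHC class II gene and Ciita encodes the activator of such genes.

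The treatments were compared by the ratio of CPM between libraries, in members with at least 50 UMIs over the pair, and a ratio was counted where the log2 ratio of CPM + 5 passed 1.5-fold. The intervals printed are 95% conditional binomial intervals of the plain log2 ratio of CPM. Each library is 1 mouse, so mouse, treatment and composition cannot be told apart. The 3 comparisons with the control share that library, and those of the combinations share the anti-PD-L1 library. Shares of all genes are given for the main gates and settings only, so counts of members under other settings cannot be read against them.

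**Figure D5:**
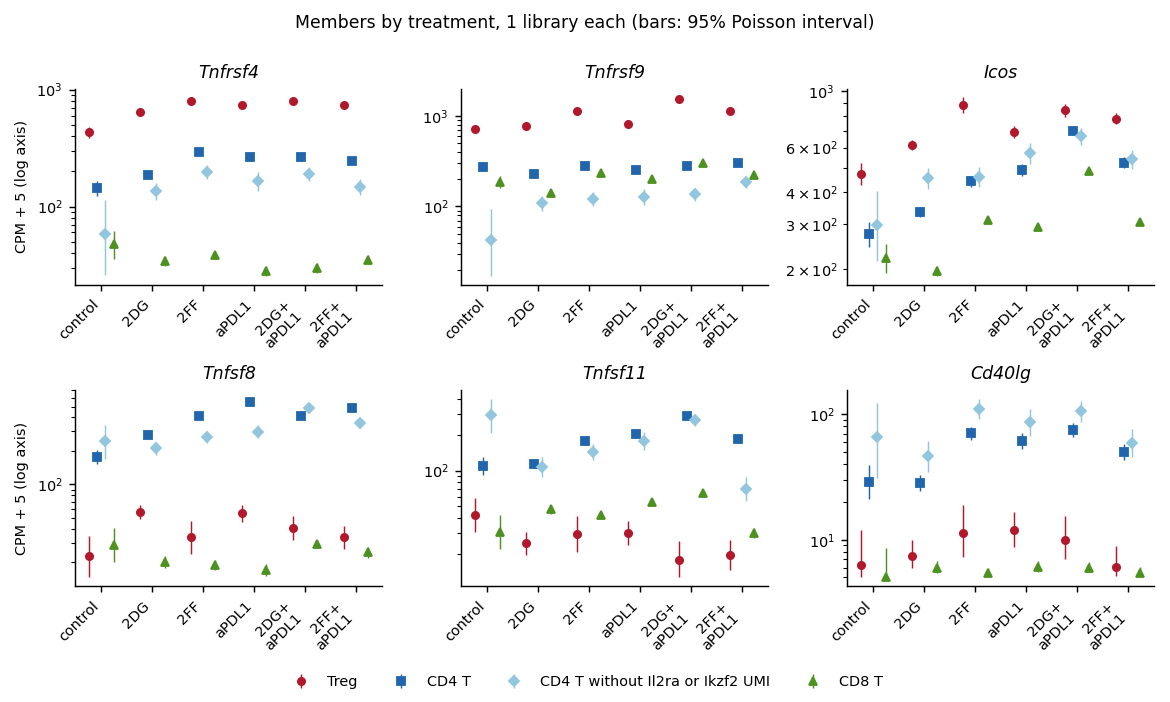
Level of 6 members in Treg, CD4 T cells, CD4 T cells without an Il2ra or Ikzf2 UMI and CD8 T cells, as CPM + 5 on a log axis, in the 6 treatment libraries, with 95% Poisson bars for counting error. Tnfrsf4 in Treg is lowest in the control library, at 427 CPM, and Tnfrsf9 in Treg is highest in the 2DG combination, at 1517 CPM.

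In Treg, the control library had the lowest levels of Tnfrsf4, Tnfrsf9, Tnfrsf18 and Icos. Tnfrsf4 was 427 CPM in the control, 645 with 2DG, 793 with 2FF and 740 with the antibody, and 788 and 736 CPM with the 2DG and 2FF combinations. The log2 ratio to the control was 0.59 (0.43 to 0.77) for 2DG, 0.89 (0.71 to 1.08) for 2FF and 0.79 (0.62 to 0.97) for anti-PD-L1. With 2FF, Icos (0.91, 0.73 to 1.09), Tnfrsf9 (0.66, 0.51 to 0.81) and Tnfrsf18 (0.66, 0.45 to 0.87) also passed 1.5-fold. In all, 4 of 6 members were past 1.5-fold upward with 2FF and none downward, beside 19.2% of genes past it in either direction. With 2DG, 2 of 7 were up and 1 down (background 15.1%), a total of 3 that became 5 with a minimum of 20 UMIs and 0 with cells thinned to 1000 UMIs. With anti-PD-L1, 2 of 7 were up and none down (16.6%), a total that became 1 with thinned cells.

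Tnfrsf9 in Treg measured 711 CPM in the control, 761 with 2DG, 1123 with 2FF and 812 with the antibody, and 1517 and 1123 CPM with the 2DG and 2FF combinations. The 2DG combination was the highest of the 6 libraries, with a log2 ratio of 0.90 (0.81 to 0.996) to anti-PD-L1 alone. In that comparison 1 of 7 members was up and 1 down, the latter Tnfsf11 from 18 and 51 UMIs, beside 11.9% of genes. For the 2FF combination over the antibody alone, none of 7 was up and 2 were down (Tnfsf8 and Tnfsf11), beside 7.17%. With thinned cells these totals became 1 and 0, and with a minimum of 20 UMIs the latter became 4.

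In CD8 T cells, the addition of 2DG to anti-PD-L1 gave higher Icos (479 against 288 CPM, log2 ratio 0.73, 0.67 to 0.79), Tnfrsf9 (293 against 193 CPM, 0.60, 0.53 to 0.67) and Tnfsf8 (24.2 against 12.1 CPM, 1.01, 0.72 to 1.30). These were 3 of 9 members past 1.5-fold, with none downward, beside 3.85% of the 11649 genes compared. Tnfsf8 was 23.7 CPM in the control, near the 2DG combination. Against anti-PD-L1 alone, the 2DG combination had more Tnfsf8 in Tcf7-positive (129 against 47.0 CPM) and double-negative cells (37.2 against 14.0 CPM). It did not in Havcr2-positive cells (5.61 against 6.81 CPM). Addition of 2FF to anti-PD-L1 moved 1 of 9, Tnfsf11, which was 25.0 CPM against 49.0 CPM (-0.97, -1.18 to -0.76), beside 2.65% of genes. Icos in CD8 T cells was 215, 191, 306 and 288 CPM with the control, 2DG, 2FF and anti-PD-L1, and 479 and 301 CPM with the combinations. The library of the 2DG combination was the highest of the 6 also for Tnfrsf9 and Tnfsf11 in these cells.

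Against the control, the CD8 T cell counts rested on 126 control cells. With 2DG, 1 of 9 members was up (Tnfsf11, 0.72, 0.15 to 1.35) and none down, beside 12.1% of genes. With 2FF, none was up and 1 was down (Tnfsf8, -0.77, -1.38 to -0.09), beside 14.7%. With anti-PD-L1, 1 was up (Tnfsf11, 0.93, 0.37 to 1.56) and 2 were down (Tnfrsf4, -0.88, -1.34 to -0.38, and Tnfsf8, -0.98, -1.60 to -0.29), beside 14.3%. These totals of 1, 1 and 3 moved to between 0 and 3 for 2DG, between 0 and 2 for 2FF and to 1 with thinned cells for anti-PD-L1 under other settings.

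In CD4 T cells, Tnfsf8 was 172 CPM in the control, 276 with 2DG, 403 with 2FF and 550 with anti-PD-L1, and 406 and 477 CPM with the 2DG and 2FF combinations. Cd40lg was 24.0, 23.3, 65.4, 55.9, 70.1 and 44.96 CPM in the same order. The control and 2DG libraries were the lowest for both genes. With 2FF, 5 of 9 members passed 1.5-fold upward (Cd40lg, 1.45; Tnfsf8, 1.23; Tnfrsf4, 1.06; Tnfsf11, 0.73; Icos, 0.71) and none downward, beside 16.2% of genes. With anti-PD-L1, the same 5 of 8 did (Tnfsf8, 1.68; Cd40lg, 1.22; Tnfsf11, 0.92; Tnfrsf4, 0.90; Icos, 0.85), beside 13.6%. With 2DG it was 1 of 9, Tnfsf8 (0.68, 0.47 to 0.90), beside 12.2%. The count of 1 became 2 with a pseudocount of 1 CPM or thinned cells. It became 5 in the restricted gate, which has 23 control cells and no share of all genes to set beside it. In the full CD4 T gate, neither combination moved a member past 1.5-fold from anti-PD-L1 (0 of 9 each, beside 8.58% with 2DG and 6.39% with 2FF). In the restricted gate it was 2 and 1 members, again without a share of all genes.

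These CD4 T cell ratios changed when the gate was restricted. Among CD4 T cells without Il2ra and Ikzf2 UMIs, Tnfsf8 was 241 CPM in the 23 control cells, 206 with 2DG, 262 with 2FF and 293 with anti-PD-L1, and the log2 ratio of CPM + 5 to the control was -0.22, 0.12 and 0.28. Tnfsf11 was 286 CPM in the control and 103, 139 and 172 CPM in these 3 libraries, with log2 ratios of -1.43, -1.01 and -0.72, so the ratios of 2FF and anti-PD-L1 reversed. Cd40lg was 60.2, 41.1, 105 and 81.8 CPM, the control value coming from 8 UMIs. Tnfrsf4 kept the direction (52.7 CPM from 7 UMIs in the control, and 130, 193 and 160 CPM), and so did Icos (294, 449, 456 and 566 CPM). Against anti-PD-L1 alone, Tnfsf8 in the 2DG combination was 480 against 293 CPM in the restricted cells, a log2 ratio of CPM + 5 of 0.70, where the full gate gave -0.43. Tnfsf11 also passed 1.5-fold there (261 against 172 CPM, 0.59, compared with 0.50 in the full gate). In the 2FF combination, Tnfsf11 was 65.1 against 172 CPM in the restricted cells (-1.34, compared with -0.14 in the full gate), and Tnfsf8 was 0.25, compared with -0.20. The part of the gate's composition in these ratios was not tested beyond this restriction.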

How the data were processed

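Single-cell libraries (10x Genomics 3′ chemistry) of 6 mice, 1 per treatment, were analysed from the deposited count matrices. The authors made these raw UMI counts with Cell Ranger (7.0.0 in the file headers and methods, 3.1.0 in the submitters' processing notes) against mm10, and no normalization had been applied to them. Cells with at least 250 genes and at most 5% mitochondrial UMIs were kept and gated on marker UMIs. The cell names of the study were not used and no doublet caller was run. UMIs were summed per library and class, and sums of at least 10 cells were compared with edgeR 4.0.16 (quasi-likelihood test, library as a block, TMM scaling, Benjamini-Hochberg adjustment over all genes tested, threshold 0.05). Adjusted p-values in the text are from that test unless DESeq2 (1.42.0) is named. Treatments were compared by CPM ratios with a pseudocount of 5 CPM and no test. Libraries held 61859753 to 73885214 UMIs, and intervals (95%) and limits for a count of 0 (3 counts) cover counting error only. In each list, the 3 genes with the largest change in each direction were named. A few genes that this rule or the likeness ranking would name are not reported here. The fits were tested on simulated data. The members and lists were chosen with earlier results of these data known. Alternatives were DESeq2, no block, no filter, other limits, stricter gates, thinned cells and leaving out each library.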

Additional observations from a re-analysis of the deposited data

Results flagged for a closer look

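Within 40 comparisons of a member between classes over 6 libraries, 4 had a library whose difference in log2(CPM + 5) lay far from the others by Dixon's criterion, which chance meets in about 1 in 20 groups. The control library had a difference of 3.18 between Treg and CD8 T cells for Tnfrsf4, against 4.24 to 4.74 in the others. For Tnfrsf18 in the same comparison it had 2.41, against 3.0004 to 3.23. Between NK and CD8 T cells it had -3.25 for Tnfrsf4, against -2.31 to -1.79, but its 23 NK cells held 0 Tnfrsf4 UMIs (3 counts would be 18.5 CPM), so this value is set by the pseudocount and is no measured difference. The library of the 2DG combination had -3.66 for Tnfsf8 between Havcr2-positive and Tcf7-positive CD8 T cells, against -2.54 to -2.10.

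Some ratios to the control passed 1.5-fold in opposite directions in different classes, on the log2(CPM + 5) scale. With 2DG, Tnfsf11 was 0.62 in CD8 T cells and -0.80 in Treg. With 2FF, Tnfsf8 was -0.60 in CD8 T cells and 1.20 in CD4 T cells. With anti-PD-L1, Tnfrsf4 was -0.76 in CD8 T cells, 0.88 in CD4 T cells and 0.78 in Treg, and Tnfsf8 was -0.75, 1.65 and 1.29 in the same classes. Each of these ratios rests on 1 mouse per treatment, and the differences between classes were not tested. The control values of Tnfsf8 came from 24 UMIs in CD8 T cells and 14 in Treg. In CD4 T cells without an Il2ra or Ikzf2 UMI, Tnfsf8 was 241 CPM in the control. It was 262 CPM with 2FF and 293 CPM with anti-PD-L1 there, neither past 1.5-fold over the control.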

How the results depend on the processing

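The numbers of members called between classes stayed within 1.5 times the reported ones under most settings. Shares of all genes called are given for the main settings only, so counts under other settings cannot be read against them. Without the filter on low counts, 8 members in place of 4 were called between Havcr2-positive and Tcf7-positive CD8 T cells, and with cells thinned to 1000 UMIs, 2 in place of 4 between mature and other conventional dendritic cells, where fewer members were tested. Leaving out each library in turn gave 7 to 7 members for Treg over CD4 T cells, 6 to 8 for Treg over CD8 T cells, 7 to 8 for CD8 T over CD4 T cells, 4 to 6 for NK over CD8 T cells, 6 to 6 for dendritic over B cells, 4 to 5 for the CD8 T states and 4 to 5 for the dendritic subsets. Tnfrsf9 in CD8 T over CD4 T cells reversed with the stricter gates, to 0.77. The cause of these changes was not tested.

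Counts of members past 1.5-fold between treatments moved more. They have no share of all genes beside them under these settings, so they describe the members only. In Treg, 2DG over control gave 5 with a minimum of 20 UMIs and 0 with thinned cells (3 reported), anti-PD-L1 over control 1 with thinned cells (2 reported), the 2DG combination over anti-PD-L1 1 with thinned cells (2 reported) and the 2FF combination 4 with a minimum of 20 UMIs and 0 with thinned cells (2 reported). In CD4 T cells, 2DG over control gave 2 with a pseudocount of 1 CPM, 5 with the stricter gates and 2 with thinned cells (1 reported), and the 2DG and 2FF combinations gave 2 and 1 with the stricter gates (0 reported). In CD8 T cells, 2DG over control gave 2 with a pseudocount of 1 CPM, 0 without the limit on UMIs of other lineages and 3 with thinned cells (1 reported), 2FF over control 2 with a pseudocount of 1 CPM and 0 with a mitochondrial limit of 10% (1 reported), anti-PD-L1 over control 1 with thinned cells (3 reported) and the 2FF combination 2 with a pseudocount of 1 CPM (1 reported). With the stricter gates, reversed CD4 T cell ratios to the control were -0.22 for Tnfsf8 with 2DG, -1.01 for Tnfsf11 with 2FF and -0.72 for Tnfsf11 with anti-PD-L1. No paired analysis was possible because each treatment had 1 library and the labels give no replicate numbers.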

Other observations

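In dendritic cells, Tnfsf8 measured 18.1 CPM in the control library, 9.29 with 2DG, 4.81 with 2FF and 2.34 with anti-PD-L1, and 1.74 and 2.35 CPM in the 2DG and 2FF combinations. Tnfsf9 measured 53.2, 30.6, 36.7, 25.5, 40.5 and 40.9 CPM in the same libraries, so anti-PD-L1 alone was the lowest and the control the highest. In NK cells, Tnfrsf9 was 326 CPM in the control (23 cells), 249 with 2DG, 266 with 2FF and 227 with anti-PD-L1, and 349 and 344 CPM in the 2DG and 2FF combinations. These values come from 1 mouse each and carry no test.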
